A study of Mus musculus with 8 samples.

Results

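DNA methylation is written, copied and removed by a small set of enzymes and their cofactors, and 10 of these genes were followed here in germ cell-like and embryonic stem cells with and without the transcription factor Tfap2c. They were taken by name (Dnmt1, Uhrf1, Uhrf2 and Hells for maintenance, Dnmt3a, Dnmt3b and Dnmt3l for de novo methylation, Tet1, Tet2 and Tet3 for oxidation), and every probe set naming only 1 of them was used, which gave 25 probe sets for 10 of the 18193 genes measured. RNA was hybridised to 8 Affymetrix mouse expression arrays, 2 for each of 4 groups. Tfap2c-/- PGCLCs (KO PGCLCs) and control PGCLCs were primordial germ cell-like cells made in culture from embryonic stem cells (ESCs) and sorted for a Blimp1mVenus reporter, and Tfap2c-/- ESCs (KO ESCs) and control ESCs were the lines they came from. All lines carried Blimp1mVenus. The controls were 2 Blimp1mVenus/Tfap2c flox/flox ESC lines, and a KO line was made from each by a transient Cre plasmid, so that the knockout was already present before differentiation. Per the methods, ESCs were cultured for embryoid body formation in a medium with PD0325901, CHIR99021 and Lif, and PGCLCs were made by a published protocol. Per the study's text, both lines were arrayed with their KO lines as ESCs and as PGCLCs, so the 2 samples of a group stand for 2 lines. The labels call the PGCLCs PGC and do not say which replicate number is which line, and p-values measure the spread between these 2 samples a group. All levels are the deposited log2 values, and a difference of 1 is a doubling.

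As background, Dnmt1 copies methylation onto the new strand after replication, and Uhrf1 brings it to hemimethylated sites. Dnmt3a and Dnmt3b place new methylation, helped by the inactive cofactor Dnmt3l, and the Tet enzymes oxidise 5-methylcytosine as a step towards its removal. Mouse primordial germ cells lose most of their methylation, and in them Uhrf1, Dnmt3a and Dnmt3b are known to be low while Dnmt1 is kept.

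The regions just upstream of the genes that differed most are shown because these genes lay on the same side of the control in KO PGCLCs and because TFAP2C is a DNA-binding factor whose family recognises GCCNNNGGC. Each is the 250 bases before an annotated start in RefSeq (GRCm38.p6), read 5′ to 3′ along the gene. All 10 genes were found by name in this annotation, with 17 windows between them. The fifth, from Dnmt3a, is shown for contrast. Uhrf1 has 2 windows and Dnmt3l and Dnmt3a have 3 each, of which 1 is shown for each gene. For Uhrf1 and Dnmt3l it is the most upstream window. Which start these cells use was not tested. Capitals mark a match to GCCNNNGGC, whose letters read the same on both strands.
Uhrf1, chr17:56303087-56303336, plus strand: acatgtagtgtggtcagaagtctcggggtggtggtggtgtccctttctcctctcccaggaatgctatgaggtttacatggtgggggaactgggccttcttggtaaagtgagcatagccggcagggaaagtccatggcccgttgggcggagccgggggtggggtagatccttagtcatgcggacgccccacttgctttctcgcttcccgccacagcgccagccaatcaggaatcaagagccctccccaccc
Dnmt3b, chr2:153649199-153649448, plus strand: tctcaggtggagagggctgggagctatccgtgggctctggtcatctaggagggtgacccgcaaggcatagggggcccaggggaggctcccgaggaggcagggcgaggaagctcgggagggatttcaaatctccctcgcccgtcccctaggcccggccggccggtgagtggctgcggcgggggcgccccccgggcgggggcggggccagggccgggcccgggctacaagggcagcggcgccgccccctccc
Dnmt3l, chr10:78042037-78042286, plus strand: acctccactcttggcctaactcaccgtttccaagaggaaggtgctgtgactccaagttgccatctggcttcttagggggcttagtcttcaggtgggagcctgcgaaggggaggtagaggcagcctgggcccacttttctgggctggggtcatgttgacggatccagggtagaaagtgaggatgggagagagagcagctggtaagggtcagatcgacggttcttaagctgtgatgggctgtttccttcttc
Tet2, chr3:133544391-133544640, minus strand: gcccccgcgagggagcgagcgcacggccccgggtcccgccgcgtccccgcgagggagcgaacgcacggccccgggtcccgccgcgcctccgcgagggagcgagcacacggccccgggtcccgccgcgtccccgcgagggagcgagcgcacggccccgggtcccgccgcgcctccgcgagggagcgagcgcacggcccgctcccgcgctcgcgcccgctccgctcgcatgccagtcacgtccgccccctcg
Dnmt3a, chr12:3806910-3807159, plus strand: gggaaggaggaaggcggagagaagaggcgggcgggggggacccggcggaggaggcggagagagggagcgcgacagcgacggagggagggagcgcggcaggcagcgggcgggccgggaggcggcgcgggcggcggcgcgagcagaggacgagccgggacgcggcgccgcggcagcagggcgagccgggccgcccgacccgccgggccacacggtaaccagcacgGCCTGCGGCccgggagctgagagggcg
The letters occurred in 1 Dnmt1 window (at −18 from the start) and 2 Dnmt3a windows (at −234 and −27). That is 3 of 17 windows, beside 13.7% of all 32851 windows of this length. By gene it is 2 of 10, beside 15.4% of 27025 genes. The windows of Uhrf1, Dnmt3b, Dnmt3l and Tet2 held no match, which says only that these letters are not in these 250 bases. For Dnmt3b and Dnmt3l the study also placed primer pairs for chromatin immunoprecipitation of TFAP2C, given in its primer list as lying in the 5′ untranslated region of Dnmt3b and the first intron of Dnmt3l. At both sites the study reported enrichment of TFAP2C over an IgG control in PGCLCs. None of the 4 primers lies in a listed window.
Dnmt3l forward primer: actggtttaggtccacatct
Dnmt3l reverse primer: tgccccattctagagctcac
Dnmt3b forward primer: acacgttgggtaggctggt
Dnmt3b reverse primer: gacagacccaggctgacaat

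Tfap2c itself had levels of 8.52 and 8.85 in KO PGCLCs, against 9.84 and 10.29 in control PGCLCs. In ESCs they were 7.28 and 6.47 in KO cells, against 7.88 and 9.14 in control cells. The KO samples lay below both controls in each cell type, with log2 differences of −1.38 (SE 0.42, limma adjusted p = 0.150) in PGCLCs and −1.63 (SE 0.42) in ESCs, and neither passed the test. Leaving out 1 control ESC sample moved the ESC difference to between −2.26 and −1.01. Whether these probes lie in the deleted part of the gene is not given in the sources used here, so they do not check the deletion.

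Array medians lay between 3.47 and 3.55, and levels near or under them are at background. Of the PGC markers 5 of 6 had a probe set, and their mean level was 7.05 and 7.06 in KO PGCLCs, against 8.53 and 8.72 in control PGCLCs. It was 6.29 and 6.02 in KO ESCs and 6.38 and 7.10 in control ESCs. Of these 5 markers 4 were called higher when control PGCLCs were set against control ESCs (Prdm1, Prdm14, Dppa3 and Dnd1). Prdm1 is Blimp1, whose reporter was used to sort the PGCLCs, so its call is not independent of the sort. Between KO PGCLCs and KO ESCs 1 of 5 was called higher. Naive ESC markers averaged 8.86 and 9.28 in KO PGCLCs against 8.47 and 7.94 in control PGCLCs, and primed epiblast markers 5.55 and 5.24 in KO PGCLCs against 4.37 and 4.84 in control PGCLCs. In the KO PGCLCs 1 of 6 naive markers (Klf4, 2.22, adjusted p = 0.00944) and 1 of 3 primed markers (Pou3f1, 1.33, adjusted p = 0.0343) were called higher. Pou3f1 was 3.28 and 3.64 in control PGCLCs, near background. The other primed markers were not called and went in opposite directions (Otx2 1.26, Fgf5 −0.21). The Klf4 call was lost without control PGCLC 2 (2.09), and that of Pou3f1 without any 1 PGCLC or control ESC sample (1.14 to 1.51). Both calls were also lost with only the groups compared (adjusted p = 0.0725 for Klf4 and 0.0749 for Pou3f1). The 6 fibroblast feeder markers averaged between 2.66 and 3.72 over the 8 arrays, the 4 endoderm markers between 3.07 and 3.67, and the 3 neural markers between 3.55 and 4.58. In KO PGCLCs against control PGCLCs 0 genes of these 3 lists were called, and the feeder and endoderm means of the samples overlapped (feeder 3.72 and 3.11 in KO PGCLCs against 3.63 and 2.92 in control PGCLCs, endoderm 3.61 and 3.32 in KO PGCLCs against 3.67 and 3.07 in control PGCLCs). The PGC, naive, primed and neural means did not overlap between KO PGCLCs and control PGCLCs, and their part in the results below was not tested. The 3 neural genes did not all go the same way in this comparison (Sox1 −0.43, Pax6 0.45 and Neurod1 1.57). In bulk RNA, fewer cells expressing a gene and less of its RNA per cell cannot be told apart. Control PGCLC 2 stood apart in its RNA controls. Its Gapdh 3′ minus 5′ difference was 0.95, against 0.31 to 0.52 in the other 7 arrays. It also had the lowest level of the 8 arrays for Dnmt3l (4.01), Uhrf1 (8.29) and Dnmt3b (7.88).

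In KO PGCLCs Uhrf1 was 2.65-fold higher than in control PGCLCs and was the 1 gene of the 10 that passed the test. It was called among 235 genes called higher of 18193, which is 1.29% (562 genes, 3.09%, were called in either direction and 327, 1.8%, lower). Dnmt3l, Dnmt3b and Tet2 had differences of 1.18 to 3.22 in the same direction with adjusted p of 0.0585 to 0.0777, and none of these passed. Of the 10 genes 5 had an unadjusted p under 0.05, beside 2861 of all 18193 genes, and 9 were not called. The median difference of the 10 was 0.50, beside −0.04 over all genes.

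**Figure D1:**
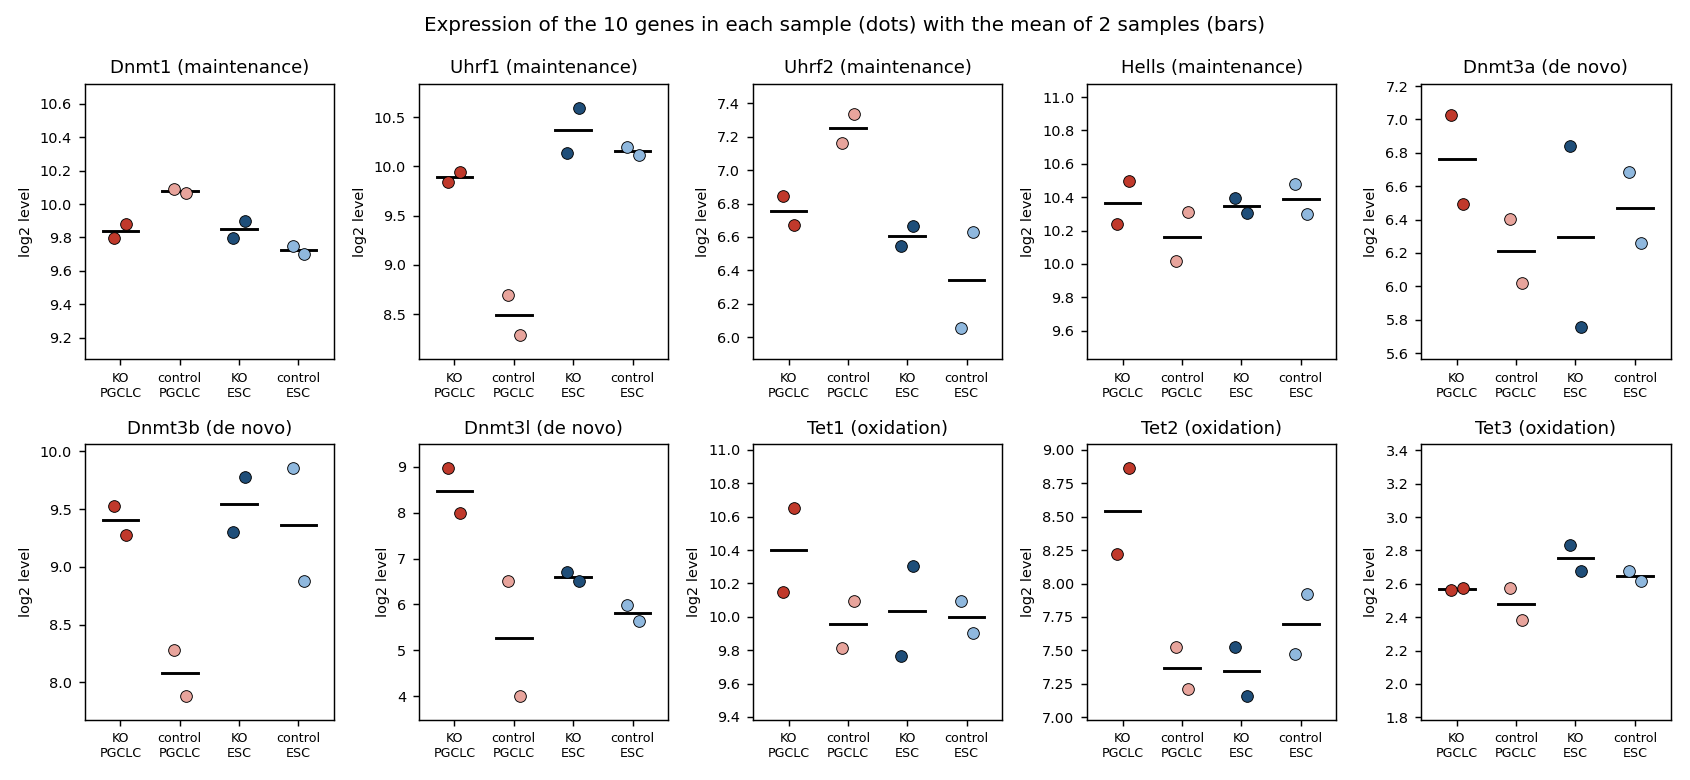
Log2 level of each of the 10 genes (1 panel a gene, its representative probe set) in KO PGCLCs, control PGCLCs, KO ESCs and control ESCs, with 2 dots for the 2 samples and a bar at their mean; each panel has its own axis. Uhrf1 and Dnmt3b lie lowest in the 2 control PGCLC samples, and Dnmt3l lies highest in the 2 KO PGCLC samples.

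Uhrf1, which guides Dnmt1 to replicated DNA, was measured at 9.84 and 9.94 in KO PGCLCs, against 8.69 and 8.29 in control PGCLCs. It was at 10.14 and 10.60 in KO ESCs, against 10.20 and 10.12 in control ESCs. The control PGCLC samples thus lay below all 6 others, and the KO ESC and control ESC samples overlapped. The difference in PGCLCs was 1.41 (SE 0.18, adjusted p = 0.0103). Its other probe set gave 1.46 (SE 0.22), and both passed when every probe set was tested. The call was lost without KO PGCLC 1 (1.46, adjusted p = 0.0502), without KO PGCLC 2 (1.36, adjusted p = 0.0891) and without control PGCLC 2 (1.20, adjusted p = 0.0815), in each of which 1 sample stood for a group, and it held in the other 14 alternatives.

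Dnmt1, the maintenance methyltransferase, was 9.79 and 9.88 in KO PGCLCs, against 10.09 and 10.07 in control PGCLCs, so that both KO samples lay below both controls, by −0.24 (SE 0.10, adjusted p = 0.278). Uhrf2, a relative of Uhrf1, was 6.84 and 6.67 in KO PGCLCs against 7.16 and 7.33 in control PGCLCs, a difference of −0.49 (SE 0.21, adjusted p = 0.325). For Hells, a chromatin remodeler needed for methylation of repeats, the 2 groups overlapped on its representative probe set (10.24 and 10.49 in KO PGCLCs, 10.02 and 10.31 in control PGCLCs). A second Hells probe set read 8.38 and 9.04 in KO PGCLCs against 7.56 and 7.67 in control PGCLCs, 1.09 higher (SE 0.32, adjusted p = 0.157). The third read 6.28 and 7.07 in KO PGCLCs against 5.32 and 6.25 in control PGCLCs, 0.89 higher (SE 0.47, adjusted p = 0.480). The representative probe set thus gave the smallest difference (0.20), and none was called.

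**Figure D2:**
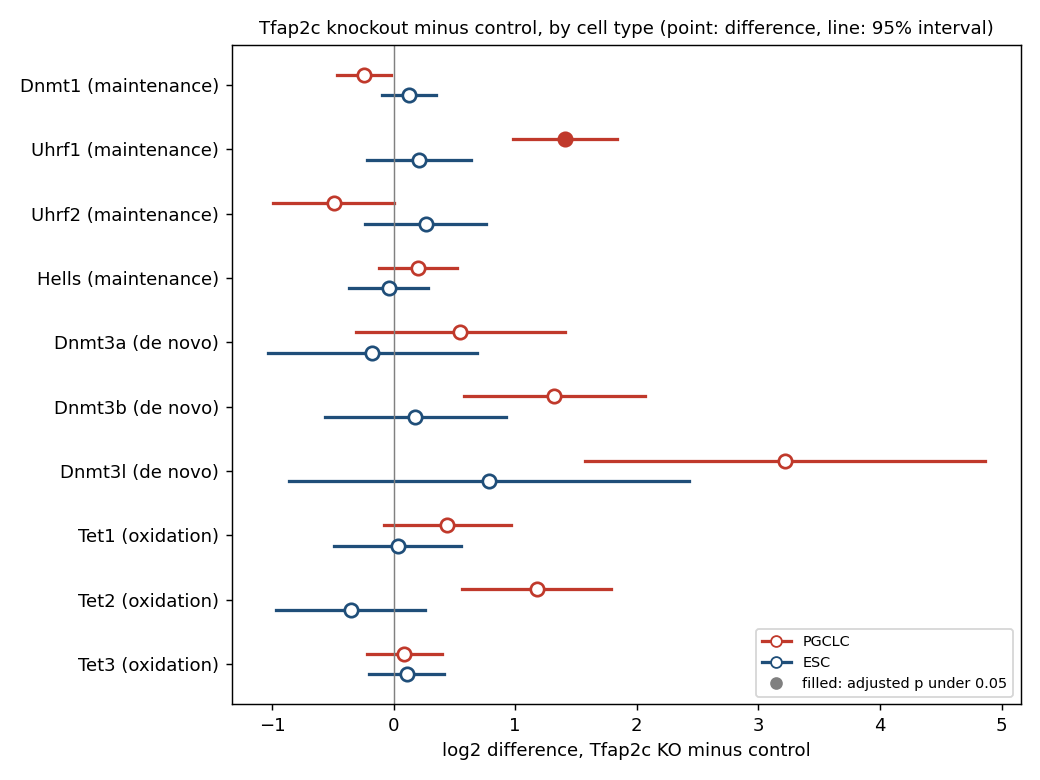
Log2 difference, Tfap2c KO minus control, for each gene (rows), with its 95% interval, in PGCLCs (red) and ESCs (blue); filled points have an adjusted p under 0.05. The filled point is Uhrf1 in PGCLCs, at 1.41, and the widest intervals belong to Dnmt3l.

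Dnmt3l, the cofactor of the de novo enzymes, had 1 probe set, of the _s_at kind, whose probes can match several transcripts. It was 8.96 and 7.99 in KO PGCLCs, against 6.51 and 4.01 in control PGCLCs. In ESCs it was 6.70 and 6.50 in KO cells, against 5.99 and 5.64 in control cells. The 2 KO PGCLC samples were above all 6 others. The 2 control PGCLC samples differed from each other more than those of any other group, with an SD of 1.77, against 0.69 in KO PGCLCs, 0.14 in KO ESCs and 0.25 in control ESCs. The difference in PGCLCs was 3.22 (SE 0.71, adjusted p = 0.0585). It passed at the same size with the replicate number as a block (adjusted p = 0.0231) and among genes with a mean level of at least 4 (adjusted p = 0.0490). It was 1.97 without control PGCLC 2 (adjusted p = 0.134) and 4.47 without control PGCLC 1 (adjusted p = 0.00673). By the fold rule of the methods, a difference of group means above 1.5 on any probe set with no test, Dnmt3l was the only gene of the 10 counted, among 422 genes (2.32%). That rule and limma thus each counted 1 of the 10, and not the same gene.

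Dnmt3b, a de novo methyltransferase, was 9.53 and 9.27 in KO PGCLCs against 8.28 and 7.88 in control PGCLCs. In ESCs it was 9.30 and 9.78 in KO cells and 9.85 and 8.87 in control cells. As for Uhrf1, the control PGCLC samples were below all 6 others. The difference in PGCLCs was 1.32 (SE 0.32, adjusted p = 0.0777), and the second probe set gave 1.34 (SE 0.30). By qRT-PCR the study reported Dnmt3b, and also Dnmt3l, as higher in KO PGCLCs than in control PGCLCs. Dnmt3b passed when control ESC 1 (adjusted p = 0.0413) or control ESC 2 (adjusted p = 0.0406) was left out, samples that do not enter this difference. Dnmt3a, the other de novo enzyme, was 7.03 and 6.50 in KO PGCLCs against 6.40 and 6.02 in control PGCLCs, a difference of 0.55 (SE 0.37, adjusted p = 0.566). Its 5 probe sets ran from −0.09 to 0.61 in this comparison.

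Tet2, an oxidase, was 8.22 and 8.86 in KO PGCLCs, against 7.52 and 7.21 in control PGCLCs. It was 7.53 and 7.16 in KO ESCs and 7.47 and 7.92 in control ESCs, so the KO PGCLC samples lay above all 6 others. The difference in PGCLCs was 1.18 (SE 0.27, adjusted p = 0.0625) and on its second probe set 1.27 (SE 0.37). It passed among genes with a mean level of at least 4 (adjusted p = 0.0495). Tet1 was 10.15 and 10.65 in KO PGCLCs against 9.81 and 10.10 in control PGCLCs, a difference of 0.44 (SE 0.22, adjusted p = 0.407). Tet3 was between 2.39 and 2.84 on all 8 arrays, under every array median, so no fold is given. Of the 10 genes 8 had KO PGCLC samples that did not overlap the controls, and 47.5% of all genes did.

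**Figure D3:**
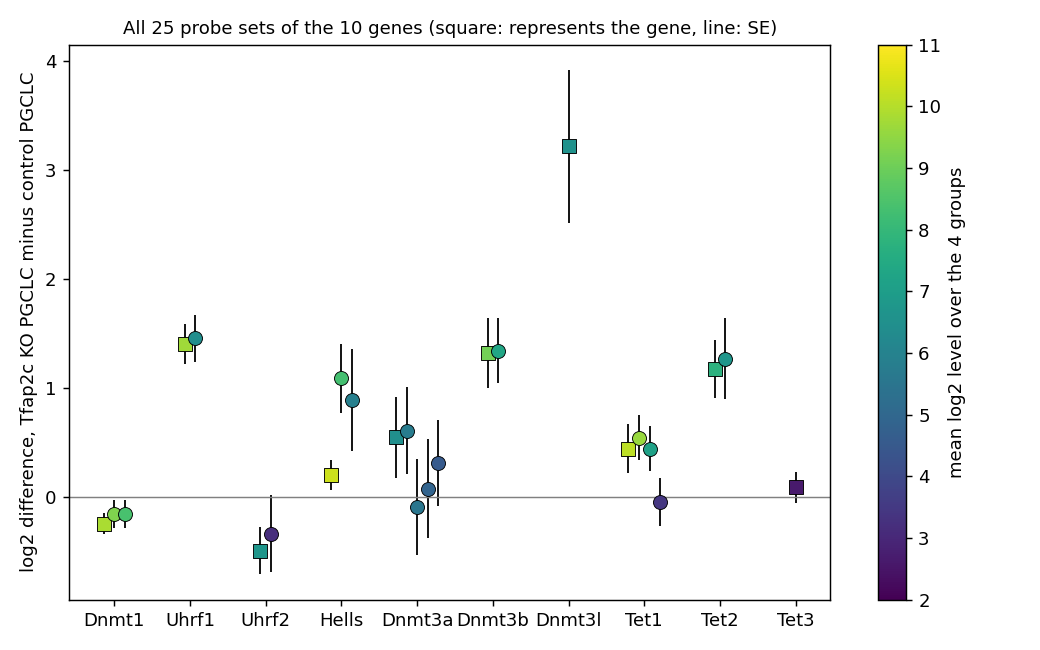
Log2 difference, KO PGCLCs minus control PGCLCs, of all 25 probe sets by gene, with SE lines, coloured by the mean log2 level over the 4 groups; squares are the probe sets that represent a gene. The 2 probe sets each of Uhrf1, Dnmt3b and Tet2 lie close together, and those of Hells and Dnmt3a are spread.

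In ESCs no gene of the 10 was called between KO and control cells. None of the 18193 genes was called either (0%) by limma, 455 had an unadjusted p under 0.05, none of them among the 10, and the fold rule counted 24 genes (0.132%), 0 of the 10. The samples of Dnmt1 and Dnmt3l did not overlap (2 of 10, beside 22.7% of all genes). Dnmt1 was 9.80 and 9.90 in KO ESCs against 9.75 and 9.70 in control ESCs. Uhrf2 was 6.54 and 6.66 in KO ESCs against 6.05 and 6.63 in control ESCs, and Hells was 10.40 and 10.30 in KO ESCs against 10.48 and 10.30 in control ESCs. Dnmt3a was 6.84 and 5.75 in KO ESCs against 6.68 and 6.26 in control ESCs, with KO ESC 1 above and KO ESC 2 below both controls, as on 4 of its 5 probe sets. Tet1 was 9.77 and 10.31 in KO ESCs against 10.10 and 9.90 in control ESCs. The 95% intervals of the differences allowed −0.22 to 0.64 for Uhrf1, −0.57 to 0.92 for Dnmt3b, −0.86 to 2.43 for Dnmt3l and −0.97 to 0.26 for Tet2.

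The difference between the knockout effects, PGCLCs minus ESCs, was called for 0 of the 10 genes and for 27 of all genes (0.148%). It was 1.20 for Uhrf1 (SE 0.26, adjusted p = 0.188), 1.53 for Tet2 (SE 0.37, adjusted p = 0.247), 1.14 for Dnmt3b (SE 0.45, adjusted p = 0.508) and 2.43 for Dnmt3l (SE 1.00, adjusted p = 0.525). It was −0.37 for Dnmt1 and −0.76 for Uhrf2. These 6 had an unadjusted p under 0.05, beside 1639 of all 18193 genes. A call in PGCLCs and none in ESCs was therefore not shown to be a difference between the cell types for any of the 10.

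Between the 2 control cell types, Uhrf1 was 3.18-fold lower in control PGCLCs than in control ESCs (−1.67, SE 0.18, adjusted p = 0.00356), on the values given above. Uhrf2 was 7.16 and 7.33 in control PGCLCs against 6.05 and 6.63 in control ESCs, 1.88-fold higher (0.91, SE 0.21, adjusted p = 0.0426). In this comparison 8.37% of all genes were called, 4.64% higher and 3.72% lower, beside 2 of 10 here. The fold rule counted 838 genes (4.61%) and of the 10 only Uhrf1. The Uhrf1 call held in all 17 alternatives, and that of Uhrf2 was lost in 9 of 17. It was lost on leaving out any 1 of the samples except control ESC 2, with adjusted p up to 0.203 (without control PGCLC 2) and a difference down to 0.62 (without control ESC 1). The second probe set of Uhrf2, near background, was 3.32 and 4.44 in control PGCLCs against 2.67 and 2.41 in control ESCs.

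Dnmt3b differed by −1.28 between control PGCLCs and control ESCs (SE 0.32, adjusted p = 0.0506) and did not pass. It passed in 4 of 17 alternatives, with the replicate number as a block (−1.28, adjusted p = 0.0443), among genes with a mean level of at least 4 (−1.28, adjusted p = 0.0394), with arrays shifted to 1 median (−1.32, adjusted p = 0.0413) and without control ESC 2 (−1.77, adjusted p = 0.0284). Dnmt1 was 10.09 and 10.07 in control PGCLCs against 9.75 and 9.70 in control ESCs, a difference of 0.36 (SE 0.10, adjusted p = 0.0640). Another of its 3 probe sets was 9.44 and 9.64 in control PGCLCs against 8.98 and 8.98 in control ESCs and passed when every probe set was tested (0.56, adjusted p = 0.0465). Dnmt3l differed by −0.55 (SE 0.71, adjusted p = 0.702), and by 0.70 without control PGCLC 2. On their representative probe sets Tet1 and Tet2 differed by −0.04 and −0.33, and their samples overlapped. The second Tet2 probe set went the other way and did not overlap. It was 6.61 and 6.90 in control PGCLCs against 6.31 and 6.12 in control ESCs (0.54). The Tet1 probe sets ran from −0.67 to 0.24, and no Tet1 or Tet2 probe set was called. Of the 10 genes 5 did not overlap, and 53.8% of all genes did not. The median difference of the 10 was −0.24, beside −0.03 over all genes.

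**Figure D4:**
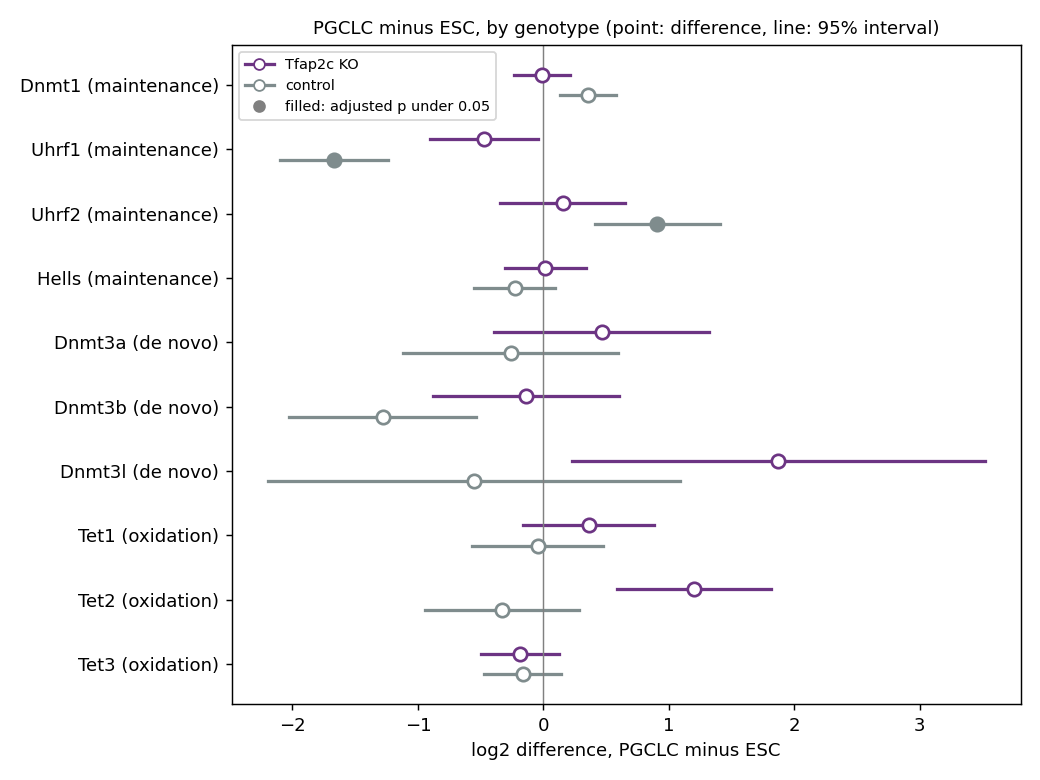
Log2 difference, PGCLC minus ESC, for each gene (rows), with its 95% interval, in Tfap2c KO cells (purple) and control cells (grey); filled points have an adjusted p under 0.05. The filled points are Uhrf1 (−1.67) and Uhrf2 (0.91) in control cells.

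Between KO PGCLCs and KO ESCs 0 of the 10 genes were called, and 422 of all genes were (2.32%), while 3 of the 10 had an unadjusted p under 0.05. Uhrf1 differed by −0.47 (SE 0.18, adjusted p = 0.228), with both KO PGCLC samples below both KO ESC samples. Tet2 differed by 1.20 (SE 0.27, adjusted p = 0.0656). Its second probe set was 7.47 and 8.58 in KO PGCLCs against 5.60 and 6.29 in KO ESCs, and it passed when every probe set was tested (2.08, SE 0.37, adjusted p = 0.0423). Dnmt3l differed by 1.87 (SE 0.71, adjusted p = 0.218), and Dnmt3b by −0.14, with an interval of −0.88 to 0.60. The fold rule counted 534 genes (2.94%), of which Dnmt3l and Tet2 belong to the 10. The samples of 5 of the 10 genes did not overlap, and those of 48% of all genes did not. This comparison shares its KO PGCLC and KO ESC samples with the knockout comparisons, as the control comparison shares its controls, so values of several comparisons are not independent of each other.

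Among other genes of the pathway, few were called in KO PGCLCs against control PGCLCs. Of 7 measured methylation readers 0 were called, with the largest differences for Mbd2 (0.81) and Mbd1 (−0.60). Of 10 partners and regulators 1 was lower. Dppa3 (Stella), which protects methylation in the zygote, was 6.28 and 6.40 in KO PGCLCs against 10.37 and 10.87 in control PGCLCs, −4.28 (SE 0.85, adjusted p = 0.0413). Of 3 Tet partners 0 were called (Cxxc5 −0.46 and Ogt 0.22). Of 4 methyl donor and 2-oxoglutarate enzymes 1 was higher, the isocitrate dehydrogenase Idh1 (0.74, SE 0.14, adjusted p = 0.0358). Of 16 S phase genes 1 was higher, the replication factor Gins2 (1.08, SE 0.17, adjusted p = 0.0214). Their median was −0.02, beside −0.04 over all genes. Of 14 germline genes known to be silenced by methylation 0 were called, with the largest differences for Stk31 (−2.09, adjusted p = 0.107) and Dazl (−1.25, adjusted p = 0.301), and a median of −0.10. Sycp1, Tex101, Taf7l, Dpep3 and Brdt lay under every array median, at background. Asz1, Mov10l1, Mael, Slc25a31 and Hormad1 lay near or under the medians in most PGCLC samples. For these genes the absence of a call says little. In ESCs 0 genes of these lists were called. Each of the 3 calls was lost when any 1 of the KO PGCLC or control PGCLC samples was left out. The differences then ran from −4.53 to −4.03 for Dppa3, 0.61 to 0.88 for Idh1 and 0.90 to 1.27 for Gins2. The Idh1 call was also lost without either control ESC sample. On all samples the Dppa3 call was lost with its probe sets averaged (adjusted p = 0.0546), without the trend (adjusted p = 0.0545) and with every probe set tested (adjusted p = 0.0509). That of Idh1 was lost without the trend (adjusted p = 0.0578). With only the groups compared, Idh1 (adjusted p = 0.0926) and Gins2 (adjusted p = 0.0813) did not pass.

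In control PGCLCs against control ESCs the readers Mbd3 (1.20, adjusted p = 0.00611) and Mbd1 (0.75, adjusted p = 0.0366) were higher and Zbtb38 (−0.97, adjusted p = 0.0358) was lower. Dppa3 (4.05, adjusted p = 0.0300) and Prdm14 (0.91, adjusted p = 0.0414), known to repress Dnmt3b in mouse ESCs, were higher. Idh1 was lower (−1.04, adjusted p = 0.00654), as was Gins2 (−0.94, adjusted p = 0.0200), and Mcm7 was higher (0.58, adjusted p = 0.00392). Between KO PGCLCs and KO ESCs Mbd2 (1.30, adjusted p = 0.0492), the histone methyltransferase Ehmt2 (1.05, adjusted p = 0.0285) and Mcm7 (0.34, adjusted p = 0.0488) were higher, and these calls were lost in 11, 10 and 16 of 17 alternatives. Among these 8 calls between control PGCLCs and control ESCs, those of Mbd3 and Mcm7 held in all 17 alternatives, and the other 6 were lost in 2 to 7. Tdg, Mat2a and Nanos3 had no probe set that names them alone.

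Over the 8 arrays, among the 1216 or 1217 other genes whose levels span at least 2, the 5 most like Uhrf1 by Pearson's r were Cdc42se1 (0.99), Slc6a8 (0.99), Laptm5 (0.99), Cbr3 (0.99) and Napepld (0.98). For Dnmt3b they were Slc6a15 (0.98), Celf4 (0.98), Ebf1 (0.97), Trim8 (0.96) and Csrnp3 (0.96), and for Dnmt3l Zfp365 (0.98), Plce1 (0.97), Tmem88 (0.97), Zhx1 (0.96) and Zfhx3 (0.95). Uhrf1 and Dnmt3b correlated at 0.92 with each other and Uhrf1 and Uhrf2 at −0.82. The points are 4 groups of 2 arrays and share the group differences given above, so these values are a description.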

How the data were processed

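Gene expression was measured on Affymetrix mouse genome arrays in 8 samples, 2 for each of 4 groups. The authors deposited normalized log2 levels. RMA is given as the normalization in their methods and GCRMA, with no version, in the submitters' processing notes. Both correct background and scale arrays before probes are summarised. Precision is limited by the 2 arrays per group. Probe sets were named from the platform annotation, in which 34945 of 45101 name 1 gene. Tests used limma 3.58.1 in R 4.3.3, two-sided. Each gene was represented by its probe set with the highest mean level, the 4 groups were fitted together (eBayes with a trend, 4 residual and 3.67 prior degrees of freedom), p-values were adjusted over 18193 genes (Benjamini-Hochberg), and a gene was called at an adjusted p under 0.05. The text names all 10 genes, Tfap2c, from each pathway list up to 4 called genes or the 2 largest differences where none was called, and the 5 genes most like Uhrf1, Dnmt3b and Dnmt3l. Genes of the marker lists named in the text are those called, the other genes of the primed and neural lists, and Nanos3, which was not measured. The genes and lists were chosen with earlier results of these data known. Alternatives were other rules for the probe set, a mean level of at least 4, no trend, only the groups compared, 2 other scalings, the replicate number as a block, leaving out each sample, every probe set tested, and the fold rule. The scripts were tested on simulated data. Plots were drawn with Matplotlib 3.10.9 in Python 3.11.15.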

Additional observations from a re-analysis of the deposited data

How the results depend on the processing

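The 10 genes' differences were recomputed under up to 17 alternatives each. Against 1 gene called higher in KO PGCLCs than in control PGCLCs, 3 were called with a mean level of at least 4 (Uhrf1, Dnmt3l and Tet2), 2 with the replicate block (Uhrf1 and Dnmt3l) and 0 to 2 without 1 sample. In control PGCLCs against control ESCs, the 1 gene called higher became 2 without _s_at and _x_at probe sets, 2 with a mean level of at least 4 and 2 with every probe set tested. It became 0 with only the groups compared, 0 with arrays shifted to 1 median, 0 under the fold rule and 0 to 1 without 1 sample. The 1 gene called lower became 2 with a mean level of at least 4, 2 with arrays shifted, 2 with the replicate block and 1 to 2 without 1 sample. In KO PGCLCs against KO ESCs the count of 0 higher became 1 with probe sets of a gene averaged, 1 with every probe set tested and 2 under the fold rule. The cause of these changes was not tested. No scaling moved the median of all genes by more than 0.04. Samples of 1 ESC line are tied across groups, but the sources used here do not say which replicate number is which line. Deviations of same-numbered samples correlated between −0.33 and 0.39 over the 6 pairs of groups, above 0.1 in 3 of them. The replicate block added the calls of Dnmt3l (KO PGCLCs against control PGCLCs, adjusted p = 0.0231) and Dnmt3b (control PGCLCs against control ESCs, adjusted p = 0.0443) and changed no other call of the 10 genes. With the ESC numbers crossed, an alternative chosen after seeing the data, 0 of the 10 and 0 of all genes were called between KO and control ESCs.

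Differences near 0 changed sign. With probe sets of a gene averaged, they were 0.052 for Hells and −0.057 for Tet1 (KO ESCs against control ESCs), 0.11 for Tet2 (control PGCLCs against control ESCs) and 0.039 for Dnmt1 (KO PGCLCs against KO ESCs). In the same comparison Dnmt1 was 0.25 without _s_at and _x_at probe sets and 0.00979 after quantile normalization, and Hells was −0.018 with arrays shifted. Quantile normalization gave 0.035 for Tet3 in the difference of the knockout effects.

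Without 1 sample, KO ESCs against control ESCs ran between −0.020 and 0.44 for Uhrf1, −0.025 and 0.55 for Uhrf2, −0.13 and 0.048 for Hells, −0.72 and 0.37 for Dnmt3a, −0.31 and 0.67 for Dnmt3b, and −0.23 and 0.31 for Tet1. KO PGCLCs against control PGCLCs ran between −0.0056 and 0.18 for Tet3. The difference of the knockout effects ran between −0.11 and 0.074 for Tet3 and −0.38 and 0.88 for Tfap2c. Control PGCLCs against control ESCs ran between −1.80 and 0.70 for Dnmt3l and −0.19 and 0.097 for Tet1. KO PGCLCs against KO ESCs ran between −0.060 and 0.040 for Dnmt1, −0.11 and 0.14 for Hells, −0.078 and 1.01 for Dnmt3a, and −0.38 and 0.099 for Dnmt3b.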
